A study of Mus musculus with 18 samples.

Results

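Circular RNAs formed from a single exon and found outside the nuclear lists are described here. They were taken as every circRNA of a cytoplasmic or whole-cell list that was in none of the nuclear lists and whose ends were both ends of 1 annotated exon (listed start plus 1 at the exon's start, listed end at its end). This rule gave 577 circRNAs, of 15545 in the cytoplasmic and whole-cell lists and 16171 in all lists. It compared no read counts, but being listed rests on junction reads, so the rule is not independent of them. The study asked whether exportin 4 (XPO4) carries exonic circRNAs out of the nucleus. It used NIH/3T3, a fibroblast line of mouse embryonic origin obtained from ATCC, and compared wild-type (WT) cells with cells knocked out for XPO4 (KO) by CRISPR-Cas9, in which both gene copies carry the same edit. RNA depleted of rRNA and treated with RNase R was sequenced from nuclei, cytoplasm and whole cells, with 2 libraries of each fraction and genotype, and mRNA was sequenced in 3 libraries of each genotype. How many KO clones were used, and whether replicates were separate cultures, was not given in the sources used here, so p-values measure the spread between these libraries only.

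The cytoplasmic and whole-cell libraries held 50341 to 81941 backsplice junction reads and the nuclear ones 2189 to 4383, so being outside the nuclear lists and a low depth in the nucleus cannot be told apart. The mRNA libraries held 16974062 to 22057323 counted reads. The headings inside the mRNA tables name the other genotype than the sample titles, which were followed here, so every mRNA direction given below would turn if the headings are right. Xpo4 mRNA stood at 3.08, 2.93 and 2.89 FPKM (fragments per kilobase, scaled to the counted reads of the library) in WT and 3.72, 2.62 and 3.77 in KO, with a log2 fold change of 0.18 and an adjusted p of 0.193 in edgeR. An edited reading frame need not lower the transcript, so this level does not check the genotype labels. The 8 fibroblast markers ranged from 37.2 FPKM for Col3a1 to 1045 for Fn1, whereas the 6 blood markers stayed at or below 0.582 FPKM and the 4 epithelial markers at or below 0.077, although the labels' extraction protocol speaks of blood. The summed blood markers were 0.453 to 0.678 FPKM in WT and 1.16 to 1.29 in KO, with Cd3e and Hbb-bs at 0, Lyz2 higher in KO (log2 fold change 2.64, adjusted p = 0.00127) and Ptprc lower (-1.78, adjusted p = 1.03e-05), and their part in the results was not tested.

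Exonic circRNAs arise when the spliceosome joins the donor at the 3′ end of an exon to the acceptor at the 5′ end of the same or an upstream exon, a reaction called backsplicing. A circle of 1 exon has both of its own ends joined to each other and no internal intron, and it lacks the cap and the poly(A) tail of an mRNA. Long flanking introns and base pairing between them are known to favour backsplicing, and most exonic circRNAs are found in the cytoplasm.

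The junction is the only sequence that tells such a circle from the linear exon, since all its other bases also occur in the mRNA. The 10 junctions with the highest mean share of reads over the 8 cytoplasmic and whole-cell libraries are shown 5′ to 3′ on the host gene's strand (GRCm38), with the last 15 bases of the exon in lower case followed by its first 15 bases in capitals.
circInsr exon 2: gtcattgtcagaaagTGTGCCCTGGTATGG
circPakap: cagacccggccccagCTATATACGCCATGG
circGlis3: caaatcctgagaaagACTTATCACCTATCC
circFoxn2: agaagtcatggcaagAAATATACGAGTAAA
circPank1: gaggacttccgaatgCATTCCCGTGGTTTG
circTcf20: atcgccagagagatgGAGGGCTGCTGGCCT
circKif26b: ctgtacccctaccagGACCCTGCTTTCTCT
circSipa1l1 exon 4: tcttctaccagaaggGGGAAGCGTGGGATT
circTtc28: catcctccaatttggGCAGCATCATCAGCG
circFbxw7: acaaagacaacaaaaAATGTGAAAACCTTT

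These circles lay at chr8:3258383-3258934 on the minus strand (exon 2 of the insulin receptor gene Insr, 552 nt, all coding), chr4:57709451-57710143 on the plus strand (exon 7 of Pakap, 693 nt), chr19:28665753-28666236 on the minus strand (exon 2 of the zinc finger transcription factor Glis3, 484 nt) and chr17:88462713-88463263 on the plus strand (exon 2 of the forkhead factor Foxn2, 551 nt). The Pakap exon also lies within the span of Palm2, so its reads cannot be assigned to either gene alone. Further down the order were chr19:34840757-34841109 on the minus strand (exon 2 of the pantothenate kinase gene Pank1, 353 nt), chr15:82851513-82857284 on the minus strand (exon 2 of the transcriptional coregulator Tcf20, 5772 nt) and chr1:178678826-178679359 on the plus strand (exon 3 of the kinesin gene Kif26b, 534 nt). The last of them were chr12:82340662-82342499 (exon 4 of Sipa1l1, a Rap GTPase-activating protein, 1838 nt), chr5:111182924-111183431 (exon 7 of Ttc28, 508 nt) and chr3:84903501-84904079 (exon 4 of Fbxw7, a substrate receptor of a ubiquitin ligase, 579 nt), all on the plus strand.

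Whole exons with their splice sites are shown for circAsph, the shortest circle at 150 nt, and for circMllt3 exon 2, which had the smallest p among circles higher in KO cytoplasm. The exon is in capitals and 20 intron bases on each side are in lower case, at chr4:9639178-9639367 and chr4:88031504-88031724, both on the minus strand. Both exons were entirely coding.
circAsph: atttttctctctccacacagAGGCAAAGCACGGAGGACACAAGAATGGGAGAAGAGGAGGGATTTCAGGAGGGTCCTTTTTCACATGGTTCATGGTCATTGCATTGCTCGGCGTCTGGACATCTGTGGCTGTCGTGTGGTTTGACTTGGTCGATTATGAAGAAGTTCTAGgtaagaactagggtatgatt
circMllt3 exon 2: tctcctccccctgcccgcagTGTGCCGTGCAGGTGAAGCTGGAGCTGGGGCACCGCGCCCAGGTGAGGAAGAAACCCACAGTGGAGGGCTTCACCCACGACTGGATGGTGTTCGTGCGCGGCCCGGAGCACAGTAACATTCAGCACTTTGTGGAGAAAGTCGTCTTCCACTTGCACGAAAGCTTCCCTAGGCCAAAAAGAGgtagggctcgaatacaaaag

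The intron bases next to the exon were AG before and GT after in 573 of 573 circles with an intron on both sides. The same held for 98.9% of 6369 other internal exons of the host genes' transcripts. find_circ, which made the lists, looks for junctions flanked by these bases.

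The circles came from exons that were long for their genes. Their median length was 439 nt (range 150 to 5772 nt), against 135 nt for the other internal exons of the same transcripts and 526 nt for 14184 circRNAs that spanned several exons. Of 576 circles with a transcript in the annotation, 76.2% were over 300 nt, compared with 4.99% of the other internal exons. In transcripts with at least 2 internal exons, the circularised exon was the longest internal exon in 365 of 537 cases (68.0%) and longer than the median internal exon in 523. No circle was 100 nt or shorter, although 1604 of the other internal exons were. The study read 150 nt from each end of size-selected products. Whether this limited the detection of short circles, and so raised the lengths given here, was not tested.

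Many of the circles also came from early exons. Exon 2 gave 250 of them (43.4%), exon 3 gave 91 and exon 4 gave 63, while exons numbered 6 or later gave 143. Of the exon 2s of the host transcripts, 46.5% were circles of this kind, compared with 2.86% of exons numbered 6 or later. Circles of several exons began at exon 2 in 26.6% of cases. Circles from exon 2 had a median length of 485.5 nt, and the other exon 2s of the host transcripts 125 nt. The introns beside the circles had medians of 9164 nt upstream and 6830.5 nt downstream, those beside the other internal exons 1836 and 1679 nt, and those beside circles of several exons 5893 and 4313.5 nt.

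**Figure D1:**
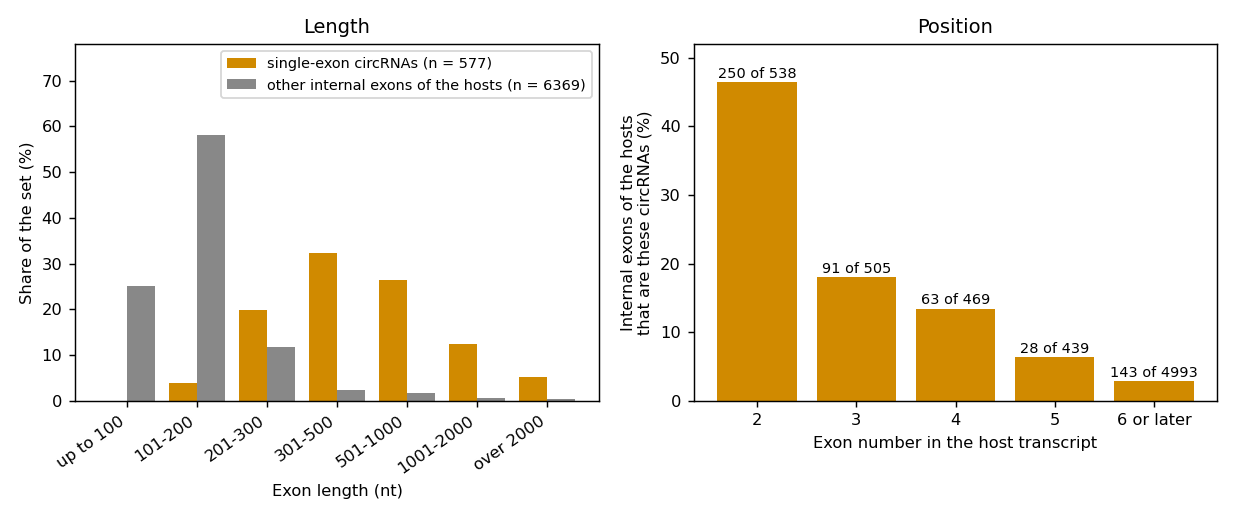
Left, share of 577 single-exon circRNAs outside the nuclear lists and of 6369 other internal exons of their host transcripts in each length class (nt, bars from 0). Right, percentage of the hosts' internal exons with a given number that were such circRNAs, with the counts above each bar: 250 of 538 exon 2s and 143 of 4993 exons numbered 6 or later.

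Median GC content was 51.8% in the circles, 50.4% in the other internal exons and 47.8% in circles of several exons. Up to 1000 intron bases upstream and downstream were searched for a reverse-complementary match (blastn, at least 50 aligned bases). A match was found for 49 of 573 circles (8.55%), 9.47% of circles of several exons and 2.57% of the other internal exons. Shorter introns were searched whole, and the other internal exons had shorter introns, so the stretches searched could differ in length between the sets. The longest match, of 180 aligned bases with 87.2% identity, flanked circZfyve1 exon 4 (Zfyve1 encodes a FYVE zinc finger protein). Its upstream arm lay at chr12:83575212-83575387, 75 bases before the exon, and its downstream arm at chr12:83573836-83574015, 616 bases after it. Both are shown on the minus strand, so that the reverse complement of the first line aligns with the second.
upstream: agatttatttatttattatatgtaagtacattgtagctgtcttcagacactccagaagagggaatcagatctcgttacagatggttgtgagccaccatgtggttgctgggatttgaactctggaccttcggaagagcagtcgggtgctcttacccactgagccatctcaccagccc
downstream: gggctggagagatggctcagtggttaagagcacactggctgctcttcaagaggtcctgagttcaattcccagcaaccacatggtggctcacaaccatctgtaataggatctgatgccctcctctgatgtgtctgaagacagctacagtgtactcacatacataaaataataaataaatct

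Coding sequence filled 342 of the 576 circles completely and 175 in part, and 59 had none in the chosen transcript. The annotated start codon lay in 170 circles (29.5%), whereas 1.70% of the other internal exons and 12.9% of circles of several exons held it. These traits were not particular to circles outside the nuclear lists. The 62 single-exon circRNAs of a nuclear list had a median length of 543.5 nt and a median upstream intron of 22053.5 nt, 53.2% of them came from exon 2, and 46.8% held the start codon. Read from that codon around the circle, the frame of 169 circles that start with ATG met a stop before the junction in 1, after passing the junction in 149, and never in 19 (11.2%). circFbxw7, circTcf20 and circHas2 (Has2 encodes a hyaluronan synthase) were among the 19. The shortest of the 19 was circCdk14 of 246 nt at chr5:5248983-5249228 on the minus strand, in which 15 bases precede the start codon, here in capitals. The gene encodes a cyclin-dependent kinase. Its length is a multiple of 3, and no stop codon follows in the frame however often the circle is read. Whether any frame is translated was not measured.
circCdk14: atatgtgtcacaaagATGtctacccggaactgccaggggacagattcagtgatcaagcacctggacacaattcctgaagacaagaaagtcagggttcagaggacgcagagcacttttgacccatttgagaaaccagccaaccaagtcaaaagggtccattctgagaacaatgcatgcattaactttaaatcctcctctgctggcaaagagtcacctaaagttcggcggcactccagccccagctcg

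Junction reads cannot show what lies inside a circle. For 57 of the 576 circles, another annotated transcript starts and ends exons at the same positions but splices inside them, and for 42 the single-exon form is known only from transcripts classed as retaining an intron. circMtdh (4087 nt) and circDlgap4 (3522 nt), the longest circles after circTcf20, were of both kinds. An acceptor was shared with a circle of several exons by 184 of the 577 circles and a donor by 110, whereas 314 shared neither. Of the 184, 95 had a higher mean share of reads than every several-exon circle from the same acceptor.

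The 577 circles came from 540 host genes, of which 509 gave 1 circle. Nav2 (a microtubule-binding navigator protein) and Bahcc1 (a chromatin reader) gave 4 each, Vps13b (a lipid transfer protein) and Ptprk (a receptor tyrosine phosphatase) 3 each, and Insr 2. Circles from the same gene could be in different lists. Of the Nav2 circles, that from exon 2 was in both lists, those from exons 6 and 10 were in the whole-cell lists alone, and that from exon 14 was in the cytoplasmic lists alone. circBahcc1 exon 2 was likewise listed in the cytoplasm alone and the other Bahcc1 circles in the whole cell alone.

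Host genes were grouped by how their symbols begin, so genes of the same kind with other symbols were left out. Glis3 was not counted among the zinc finger genes, nor Insr among the kinases. The shares given next are thus of symbols, not of whole gene classes. Chromatin regulators made up 23 of the 540 hosts (4.26%), compared with 1.95% of the 4666 hosts of all cytoplasmic and whole-cell circRNAs, and zinc finger genes 25 (4.63% against 1.74%). Ubiquitin ligase genes made up 2.04% against 2.72%, and kinases 1.67% against 2.19%. Of 20 genes known as hosts of well-studied circRNAs, 4 gave such a circle, namely Fbxw7, Rere (a transcriptional corepressor), Hipk2 (a nuclear kinase) and Zfp609. Of 5 hosts that the study examined in 3T3 cells, Specc1 gave a circle of this kind.

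In the lists, 225 of the 577 circles (39.0%) were in both fractions, 140 (24.3%) in the cytoplasm alone and 212 (36.7%) in the whole cell alone, while over all 15545 circRNAs these shares were 30.9%, 31.2% and 37.9%. Of 137 circles up to 300 nt 21.2% were in both lists, against 49.5% of circles over 1000 nt. Circles from exon 2 were in both lists in 48% of cases and those from later exons in 32.3% of cases. No circRNA was in only 1 of the 4 libraries of a fraction, so the lists appear to have been filtered before deposit, and absence from a fraction's list need not be an absence of reads.

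Each circle had few reads. The 365 circles of the cytoplasmic lists had a median of 19 reads summed over 4 libraries (range 6 to 328), and the 437 of the whole-cell lists a median of 14 (range 5 to 293). Over circles, the Spearman correlation between replicates was 0.73 to 0.86 in the cytoplasm and 0.71 to 0.77 in the whole cell. Between WT and KO it was -0.115 to -0.0166 in the cytoplasm (365 circles) and 0.115 to 0.165 in the whole cell (437 circles), where the points share their libraries and their depth. Circles listed through 1 genotype alone also entered, which can by itself lower the value between genotypes. No conclusion on the genotypes is drawn from it.

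As a class, the single-exon circles took a similar share of the reads in every library, and no difference between genotypes passed a test. They held 3.66% and 3.85% of the junction reads in WT cytoplasm against 3.98% and 4.28% in KO cytoplasm, and both KO values lay above both WT values. The means were 3.76% ± 0.131 and 4.13% ± 0.207 (SD, n = 2 each, exact permutation test, two-sided p = 0.333, the smallest p that 2 against 2 allows). In the whole cell they held 4.01% and 4.35% in WT against 4.23% and 4.28% in KO, which overlapped, with means of 4.18% ± 0.241 and 4.26% ± 0.0366 (SD, n = 2 each, exact permutation p = 1). Between fractions the means were 3.94% ± 0.259 in the cytoplasm and 4.22% ± 0.147 in the whole cell (SD, n = 4 each, exact permutation p = 0.114, two-sided), and the difference was -0.427 percentage points within WT and -0.126 within KO. With the 62 single-exon circRNAs of the nuclear lists added, the KO minus WT difference was -0.615 percentage points in the cytoplasm and 1.98 in the whole cell, and the cytoplasm minus whole-cell difference was 1.42 (exact permutation p = 1, 0.333 and 0.114).

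The level per library, the mean log10 junction reads over the circles listed in it, was 0.664 and 0.723 in WT cytoplasm against 0.611 and 0.682 in KO cytoplasm, which overlapped. Its means were 0.693 ± 0.0420 and 0.647 ± 0.0499 (SD, n = 2 each, exact permutation p = 0.667). In the whole cell the level was 0.571 and 0.607 in WT against 0.593 and 0.582 in KO, and the genotypes again overlapped (exact permutation p = 1). Scaled to equal library totals, the cytoplasmic difference changed sign, from -0.0465 to 0.103.

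**Figure D2:**
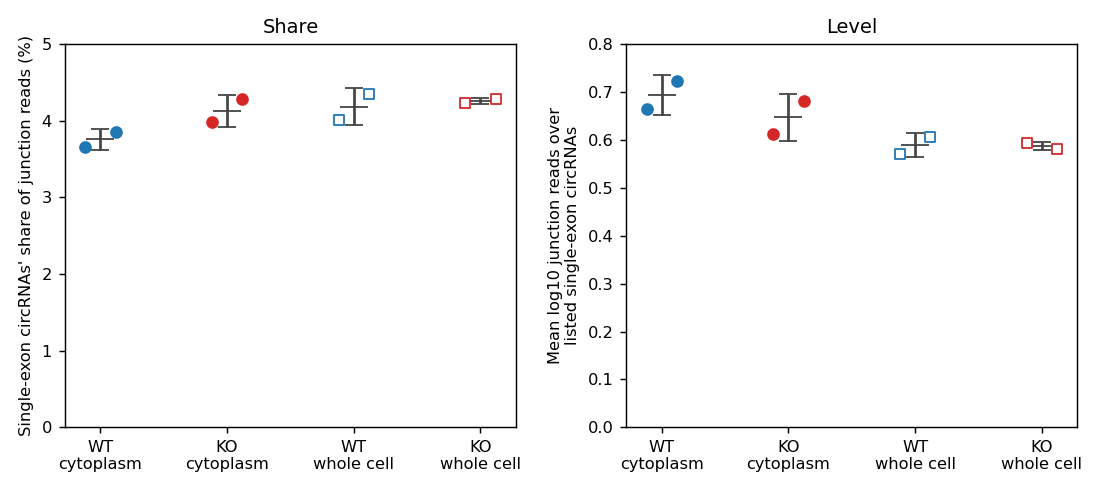
Left, percentage of a library's backsplice junction reads on the single-exon circRNAs, and right, mean log10 junction reads over those listed in it, for each of 8 libraries (points: blue WT, red KO, filled cytoplasm, open whole cell), with mean and SD (bars, n = 2). The cytoplasmic shares of KO, 3.98% and 4.28%, lie above those of WT, 3.66% and 3.85%, and the levels of WT and KO overlap.

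Among the 10 most read circles, circPakap, circKif26b and circSipa1l1 exon 4 fell in KO cytoplasm and the others did not pass the test. circKif26b had 81 and 136 reads in WT against 13 and 16 in KO cytoplasm, and in the whole cell it had 8 and 12 in WT against 9 and 19 in KO. Its 2 WT cytoplasmic libraries stood above the other 6, with a log2 fold change of -2.34 ± 0.778 (SE, adjusted p = 0.0166) for KO against WT in the cytoplasm and 0.55 in the whole cell (adjusted p = 0.490). In bulk RNA, fewer cells with a circle and fewer copies per cell cannot be told apart. circPakap had 123 and 90 reads in WT against 19 and 15 in KO cytoplasm, a log2 fold change of -2.10 ± 0.778 (SE, adjusted p = 0.0279). Its whole-cell reads were 80 and 50 in WT against 53 and 66 in KO and overlapped. circSipa1l1 exon 4 had 47 and 53 reads in WT against 7 and 14 in KO cytoplasm, a log2 fold change of -1.72 ± 0.700 (SE, adjusted p = 0.0430), and its whole-cell reads, 39 and 29 in WT against 47 and 14 in KO, overlapped. Of the 9 alternative fits, circKif26b passed in 6, circPakap in 4 and circSipa1l1 exon 4 in 2, with no change of sign.

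The most read circle, circInsr exon 2, had 130 and 80 reads in WT against 37 and 81 in KO cytoplasm, and 72 and 77 in WT against 103 and 41 in KO whole cell. The genotypes overlapped in both fractions (log2 fold change -0.35 in the cytoplasm, adjusted p = 0.713). circFbxw7 had 54 and 41 reads in WT against 4 and 32 in KO cytoplasm, with whole-cell reads of 20 and 16 in WT against 39 and 19 in KO. Its cytoplasmic log2 fold change was -0.93 ± 0.773 (SE, adjusted p = 0.305), and 1 KO library lay far below the other. circPank1, with 59 and 52 reads in WT against 12 and 83 in KO cytoplasm, and circFoxn2, with 66 and 77 in WT against 20 and 88 in KO, had KO replicates on either side of both WT libraries.

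**Figure D3:**
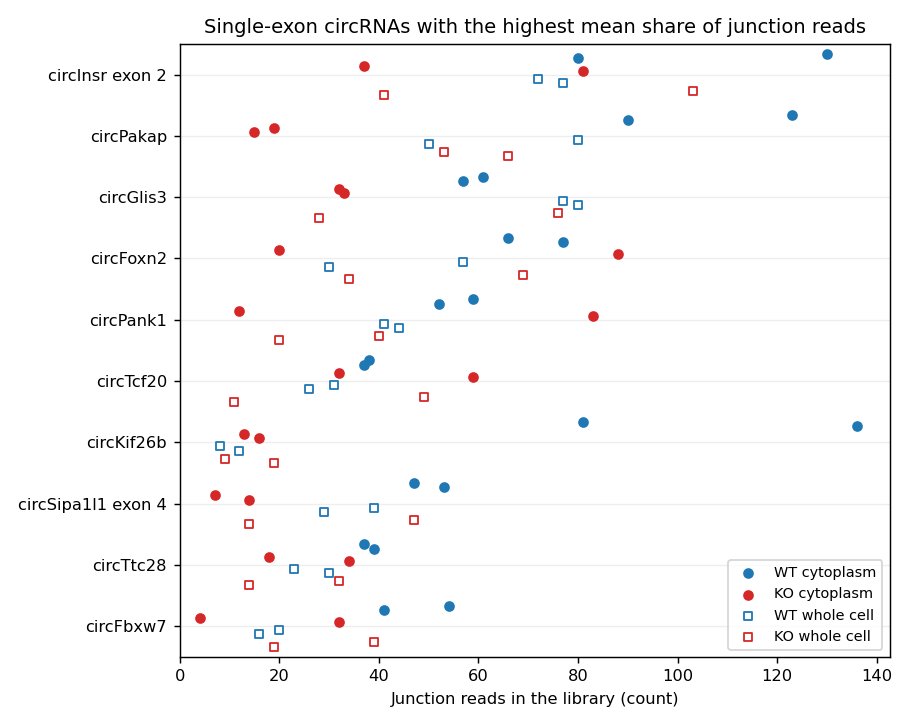
Junction reads (count) of the 10 single-exon circRNAs with the highest mean share, in each of 8 libraries (blue WT, red KO, filled circles cytoplasm, open squares whole cell). For circKif26b the WT cytoplasmic libraries, at 81 and 136 reads, stand apart from the other 6, which lie between 8 and 19.

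Tested one by one with edgeR in the cytoplasm, 108 single-exon circles rose and 66 fell in KO. They were among 332 of the 365 listed circles that had at least 10 reads in the 4 libraries, so 174 (52.4%) passed an adjusted p of 0.05, close to the 53.5% of all 8917 circRNAs tested, of which 30.0% were higher and 23.5% lower. The median log2 fold change was 0.16 over the circles and -0.25 over all circRNAs tested. The split between directions depended on the scaling: with no scaling between libraries of unequal totals, 32 rose and 49 fell and the median over all circRNAs moved to -0.77. With total junction reads as library size 106 rose and 75 fell. DESeq2, which changes the test, the scaling and the filter, called 36 higher and 3 lower. It gave no adjusted p for 67 of the 174. Without KO cytoplasmic replicate 1 no circle passed (smallest adjusted p = 0.0924, 95 at an unadjusted p under 0.05), and without KO replicate 2 or WT replicate 2 the count was 79 and 78.

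The 5 circles with the smallest p among those higher in KO cytoplasm had 0 to 2 reads in each WT library and 10 to 19 in each KO library. circMllt3 exon 2 (Mllt3 encodes a YEATS-domain reader of acylated histones) had 0 and 0 reads in WT against 16 and 10 in KO, and was in no whole-cell list. circSh3rf3 exon 4, from a RING-domain protein gene, had 1 and 0 in WT against 19 and 14 in KO. circZfp608 had 1 and 1 in WT against 14 and 11 in KO, circGalnt7 (an enzyme of O-glycosylation) 1 and 1 against 11 and 12, and circBcar3 (an adaptor of adhesion signalling) 2 and 0 against 17 and 17. That the genotypes did not overlap was a condition for naming them. They also reached the 10-read minimum through KO alone and were picked for the smallest p. WT reads near 0 thus come partly from the choice. The adjusted p was 0.000138 for the first 2 and at most 0.000165 for the others, and it does not allow for this choice.

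The 5 with the smallest p among those lower in KO cytoplasm were the reverse, with 10 to 23 reads in each WT library and 0 to 2 in each KO library. circVps13b exon 34 had 23 and 22 reads in WT against 0 and 2 in KO (log2 fold change -3.83 ± 0.757, SE, adjusted p = 0.000587). circCnot6, from a gene of the CCR4-NOT deadenylase, had 11 and 13 in WT against 0 and 0 in KO, and circDisc1, from a scaffold protein gene, 12 and 17 in WT against 1 and 0 in KO. Both were in no whole-cell list. circRnf111 (a ubiquitin ligase of TGF-beta signalling) had 10 and 14 in WT against 0 and 1 in KO, and circFoxn3 (a forkhead repressor) 10 and 11 in WT against 0 and 1 in KO. An annotated transcript splices inside the circCnot6 exon, and the adjusted p was 0.00130 or lower for all 5. They were chosen under the same conditions and reached the 10-read minimum through WT alone, so KO reads near 0 come partly from the choice.

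**Figure D4:**
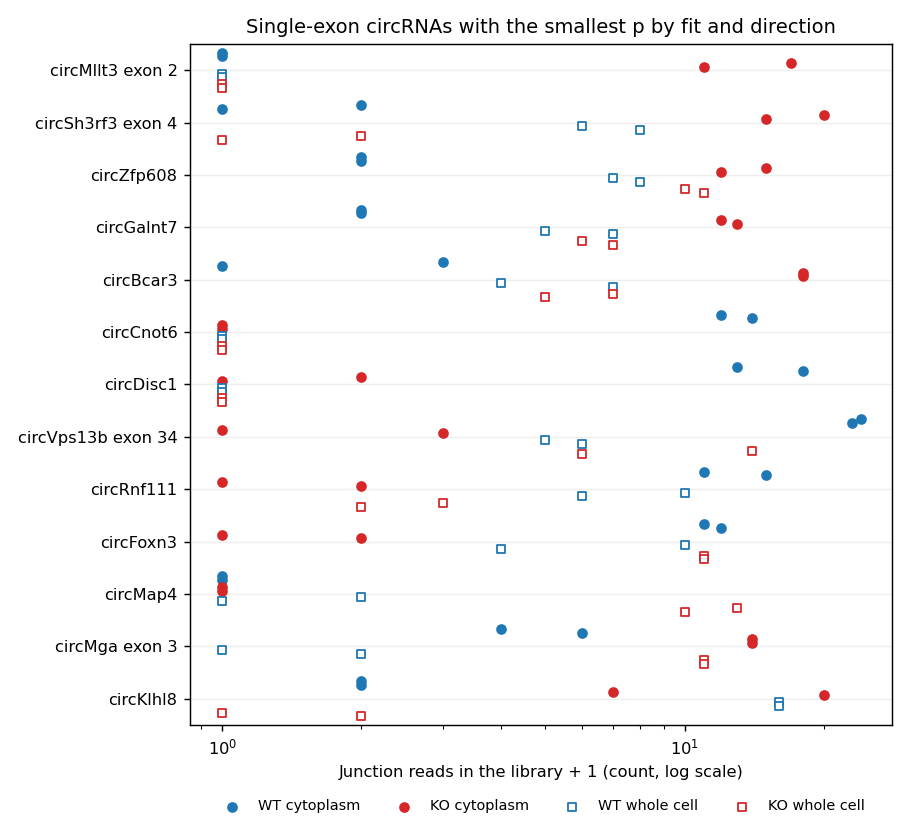
Junction reads plus 1 (count, log scale) in each of 8 libraries for the single-exon circRNAs with the smallest p in each KO against WT fit and direction (blue WT, red KO, filled circles cytoplasm, open squares whole cell). circVps13b exon 34 has 23 and 22 reads in WT against 0 and 2 in KO cytoplasm, and circKlhl8 has 15 and 15 in WT against 0 and 1 in KO whole cell.

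Circles from the genes with several of them were set side by side, and those of Vps13b went both ways. circVps13b exon 34 fell in KO cytoplasm, whereas circVps13b exon 17 had 1 and 1 reads in WT against 7 and 6 in KO (log2 fold change 3.07, adjusted p = 0.00154) and circVps13b exon 36 had 0 and 1 against 2 and 10 (3.78, adjusted p = 0.00270), so both rose, on few reads. circPtprk exon 3 rose from 0 and 1 reads to 7 and 6 (adjusted p = 0.000931), and circPtprk exon 8 had 4 and 8 in WT against 1 and 1 in KO (adjusted p = 0.0549). circNav2 exon 2 fell from 10 and 11 reads to 1 and 0 (log2 fold change -3.60, adjusted p = 0.00138), and circBahcc1 exon 2 from 9 and 8 to 0 and 1 (adjusted p = 0.00327). circAsph, the shortest circle, had 5 and 7 reads in WT against 1 and 0 in KO (adjusted p = 0.0170). circGm20521 (152 nt, overlapping the poly(A)-binding protein gene Pabpn1) had 5 and 6 against 0 and 1 (adjusted p = 0.0247), and circGm19299 (155 nt, a lincRNA gene) had 3 and 3 in WT against 2 and 1 in KO whole cell, too few to test.

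In the whole cell few circles passed the test by genotype. Of 359 tested, 4 rose and 1 fell in KO (1.39%), against 3.15% of 8903 circRNAs, 1.52% higher and 1.63% lower, and 116 circles (32.3%) had an unadjusted p under 0.05, against 38.5% of all. circMap4 (a microtubule-associated protein) had 1 and 0 reads in WT against 12 and 9 in KO whole cell, and circMga exon 3 (a partner of the transcription factor MAX) had 0 and 1 in WT against 10 and 10 in KO. circKlhl8 (an adaptor of a cullin ubiquitin ligase) had 15 and 15 in WT against 0 and 1 in KO. They were named on the condition that the genotypes did not overlap, and reached the 10-read minimum through 1 genotype alone. All 3 stood at an adjusted p of 0.0477, just under the threshold. The other 2 that rose, chosen after their values were seen, were circSlc7a6 (an amino acid transporter), with 0 and 0 reads in WT against 6 and 8 in KO (adjusted p = 0.0477), and circDennd4c (a Rab exchange factor), with 1 and 1 against 7 and 10 (adjusted p = 0.0494). DESeq2 called 0 of the 359 (27 at an unadjusted p under 0.05), and the count was 72 with total junction reads as library size and 69 with a replicate block, where 2003 and 1777 of all 8903 circRNAs passed.

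The effect of KO differed between cytoplasm and whole cell for some circles. In the interaction of genotype and fraction over 225 circles listed in both, 38 had a higher KO effect in the cytoplasm than in the whole cell and 18 a lower one, 56 in all (24.9%, against 31.0% of 4803 circRNAs, 16.5% higher and 14.5% lower). circKlhl8 had 1 and 1 reads in WT against 6 and 19 in KO cytoplasm, the reverse of its whole-cell reads. circSh3rf3 exon 4 had 5 and 7 reads in WT against 1 and 0 in KO whole cell, also the reverse of its cytoplasmic reads. circSetd2 (a histone methyltransferase gene), chosen after its values were seen, had 12 and 10 in WT against 1 and 2 in KO cytoplasm but 5 and 5 in WT against 17 and 19 in KO whole cell (adjusted p = 0.000344 for the difference). circMllt3 exon 5, chosen likewise, had 5 and 7 against 1 and 1 in the cytoplasm and 4 and 4 against 17 and 19 in the whole cell, and the 2 effects differed (adjusted p = 0.000678). circYthdf2, from an m6A reader gene known for RNA turnover, had 10 and 6 reads in WT against 0 and 1 in KO cytoplasm, but 2 and 0 in WT against 4 and 7 in KO whole cell (adjusted p = 0.000364 for the difference).

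Counted by libraries that did not overlap, with reads taken as a share of each library's total, 45 of the 225 circles lay in opposite directions in the 2 fractions (23.8% of all 4803 did) and 56 in the same direction (24.8% of all). This count rests on the same libraries as the interaction. Of the 45, 27 were higher in KO cytoplasm and lower in KO whole cell and 18 the reverse. The shares for the circles were thus close to those of all circRNAs of both lists.

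**Figure D5:**
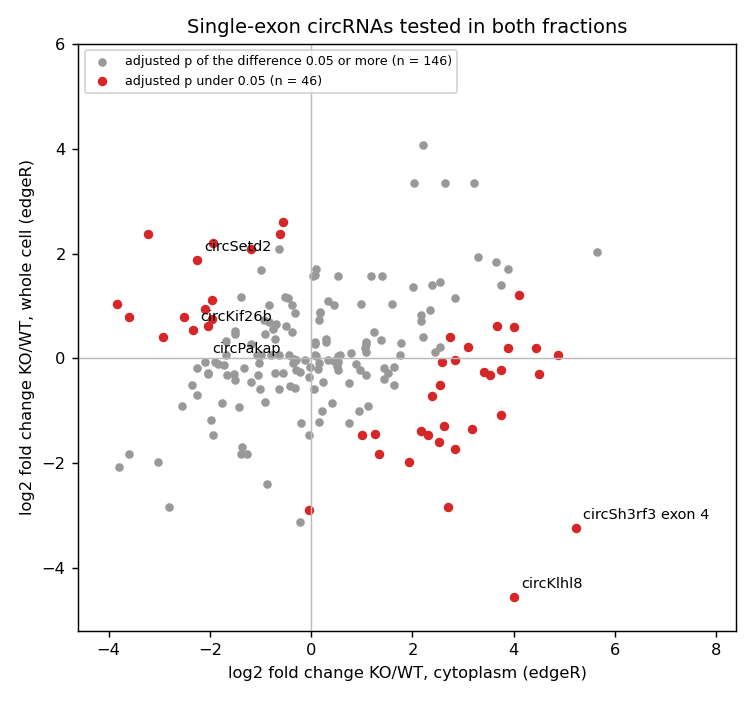
log2 fold change KO/WT in the cytoplasm (x axis) against that in the whole cell (y axis) for the 192 single-exon circRNAs tested in both fractions, with the 46 that had an adjusted p under 0.05 for the difference between fractions in red. circKlhl8 and circSh3rf3 exon 4 lie at the lower right, higher in KO cytoplasm and lower in KO whole cell, and circSetd2 at the upper left.

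Within a genotype, cytoplasm was compared with whole cell, using libraries that also enter the comparisons of genotypes. In WT 65 circles were higher and 75 lower in the cytoplasm among 290 tested, where 58.7% of 7760 circRNAs passed (33.1% higher, 25.6% lower). In KO 68 were higher and 80 lower among 291, where 59.3% of 6970 passed (29.8% higher, 29.5% lower). With no scaling the WT split turned to 51 higher and 20 lower, and without either WT cytoplasmic library no circle passed in edgeR (109 and 90 at an unadjusted p under 0.05). Of the calls above, 93 of 140 in WT and 93 of 148 in KO were on circles of 1 list alone. Such circles entered as 0 reads in the other fraction, so these calls largely restate the lists. Among circRNAs of both lists 35 of 197 circles passed in WT (17.3% of all 4289) and 32 of 198 in KO (21.4% of all 4079). circKif26b was higher in WT cytoplasm than in WT whole cell by 2.87 on the log2 scale (adjusted p = 0.00963), and its difference in KO was -0.27 (adjusted p = 0.773). circCrebbp, from the histone acetyltransferase CBP gene, had 47 and 44 reads in WT cytoplasm and 6 and 3 in WT whole cell, and circHipk2 had 3 and 6 against 23 and 14, so that they lay on opposite sides (adjusted p = 0.0102 and 0.0104, circCrebbp chosen after its values were seen).

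Of the circles with well-studied hosts, circFbxw7 is given above. circRere had 21 and 16 reads in WT against 12 and 10 in KO cytoplasm, and 22 and 24 in WT against 17 and 2 in KO whole cell, with adjusted p-values of 0.772 and 0.224. circHipk2 had 8 and 7 reads in KO cytoplasm and 9 and 4 in KO whole cell, and its effect of KO differed between the fractions by 2.69 on the log2 scale (adjusted p = 0.0121). circZfp609 was listed in the whole cell alone, with 2 and 3 reads in WT against 7 and 5 in KO. The single-exon circSpecc1 was also listed there alone, with 8 and 4 in WT against 5 and 2 in KO. A circle of several exons shared its acceptor, and whether the single-exon circle is the circSpecc1 that the study imaged was not checked.

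Circles of chromatin regulator genes, grouped by symbol as above, numbered 25. Of these, 15 could be tested in the cytoplasm, where 3 rose and 2 fell, beside 30.0% higher and 23.5% lower over all circRNAs tested. The examples were chosen after their values were seen. circSetd2 fell and circEp300 (the acetyltransferase p300) rose in KO cytoplasm, the latter from 6 and 4 reads to 10 and 9 (log2 fold change 1.44, adjusted p = 0.0170). Circles of zinc finger genes, also grouped by symbol, numbered 27. In the cytoplasm 17 were tested, of which 7 rose, circZfp608 among them, and 4 fell, including circZbtb7a with 23 and 27 reads in WT against 4 and 5 in KO. The 11 of 17 that passed stand beside 53.5% of all circRNAs tested. Of the TGF-beta and BMP genes, Ltbp1, Tgfbr3, Smad2 and Tgfbr2 gave circles. Of the 3 tested in the cytoplasm, 2 rose and 0 fell in KO, beside 30.0% higher and 23.5% lower over all circRNAs tested. Those that rose, on few reads, were circTgfbr3 (1 and 1 reads in WT, 3 and 8 in KO) and circSmad2 (1 and 2 in WT, 10 and 6 in KO).

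The host genes were expressed at a median of 7.70 FPKM in WT and 7.23 in KO. Of 530 hosts tested in mRNA, 127 were higher and 184 lower in KO, 311 in all (58.7%, against 48.7% of 14688 genes, 25.1% higher and 23.6% lower), with a median log2 fold change of -0.07. Of the 23 hosts grouped by symbol as chromatin regulators 16 were lower and 1 was higher. Of the 25 zinc finger hosts grouped likewise 13 were lower and 2 higher. Kif26b mRNA fell by 1.46 on the log2 scale (SE 0.0807, adjusted p = 9.14e-09), and circKif26b fell in the cytoplasm, a likeness of direction that holds only if the titles and not the headings are right, as for all hosts below. Among the hosts of the other circles named for their reads or their p, Mllt3 (0.67, adjusted p = 5.73e-07), Galnt7 (0.62, adjusted p = 0.000381), Sh3rf3 (0.37, adjusted p = 0.0140) and Bcar3 (0.33, adjusted p = 0.0117) rose, as circMllt3 exon 2, circGalnt7, circSh3rf3 exon 4 and circBcar3 did in the cytoplasm. Foxn3 (-0.47, adjusted p = 0.000156), Cnot6 (-0.23, adjusted p = 0.00479) and Vps13b (-0.47, adjusted p = 0.00280) fell, as did circFoxn3, circCnot6 and circVps13b exon 34, whereas circVps13b exon 17 and exon 36 rose. Mga fell by 0.49 (adjusted p = 0.000177) and Map4 by 0.18 (adjusted p = 0.0220), while circMga exon 3 rose in both fractions and circMap4 in the whole cell. Sipa1l1 mRNA rose by 0.54 (SE 0.0721, adjusted p = 3.59e-05) while circSipa1l1 exon 4 fell. Zfp608, Disc1, Rnf111 and Klhl8, whose circles were named for their p, did not pass in edgeR (adjusted p = 0.970, 0.568, 0.682 and 0.248). Foxn2 rose (0.21, adjusted p = 0.0105). Tcf20 (-0.39, adjusted p = 0.000556) and Ttc28 (-0.55, adjusted p = 0.000262) fell. The circles of Foxn2, Tcf20 and Ttc28 passed in neither fraction. Insr, Glis3, Pank1 and Fbxw7 did not pass, and Pakap was not tested.

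Changes of circles were set beside those of their hosts. Of 326 circles with both values, 104 rose in KO cytoplasm, and the host mRNA of these rose in 32, fell in 28 and did not pass in 44. Of the 64 that fell, the host fell in 30, rose in 10 and did not pass in 24. The Spearman correlation between the 2 log2 fold changes was 0.133 over these 326 circles in the cytoplasm and -0.0941 over 355 in the whole cell, where circles of 1 gene share a host value. As a description, the share of a circle and the FPKM of its host had a Spearman correlation of 0.0958 in WT cytoplasm and 0.0208 in WT whole cell (365 and 437 circles), and circle length had 0.210 and 0.162. In KO circle length had 0.0277 in the cytoplasm and 0.207 in the whole cell.

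Genes known for promoting or opposing backsplicing, for circRNA turnover or, in the case of Ddx39b, for circRNA export from the nucleus were also measured in mRNA. Of 21 tested, 1 was higher in KO and 11 were lower, beside 25.1% higher and 23.6% lower over all genes tested. Mbnl1, which binds introns beside its own circRNA, was higher by 0.47 on the log2 scale (adjusted p = 1.02e-05). The double-stranded RNA binding helicase Dhx9 fell by 0.42 (adjusted p = 0.000295), the editing enzyme Adar by 0.48 (adjusted p = 0.000439) and the helicase Ddx39b by 0.87 (adjusted p = 2.04e-08). Their part in the circle counts was not tested.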

How the data were processed

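circRNAs were measured in 12 RNA-seq libraries and mRNA in 6, all with GRCm38 (mm10) per the labels. In the circRNA lists the authors deposited backsplice junction read counts from find_circ, in whole numbers, although their methods normalise junction reads to TPM. No circRNA stood in a single library of a fraction, so the lists look filtered. In the mRNA tables the authors deposited whole-number counts per gene (HISAT2, and featureCounts 2.0.0 per the file headers). The headings of their count columns name the other genotype. Titles were followed, and all mRNA directions turn if the headings are right. FPKM was computed here from these counts.

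KO and WT, and the fractions, were compared with the quasi-likelihood test of edgeR 4.0.16 (TMM, a minimum of 10 reads in total per circRNA, Benjamini-Hochberg adjustment over all circRNAs or genes tested, threshold 0.05). The interaction of genotype and fraction was added after the data were seen. Shares were compared by exact two-sided permutation tests over libraries. DESeq2 1.42.0, other scalings, no filter, a replicate block and leaving out each library were the alternatives (for the interaction only the block and leaving out each library), and the fits were tested on simulated data with known changes. R 4.3.3, Python 3.11.15 and blastn 2.17.0 were used. Exons were taken from the deposited tables and transcripts from GENCODE on GRCm38.

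The members and gene lists were chosen with earlier results of these data known. Named were the 10 circles with the highest mean share, the 5 with the smallest p in each direction of each KO against WT fit (adjusted p under 0.05, genotypes not overlapping, a mean of at least 10 reads in the higher genotype), the 3 longest and 3 shortest, circles of the 5 hosts with the most and of well-studied hosts, and Xpo4. All others, including circZfyve1 exon 4, circCdk14, circHas2, circYthdf2 and the examples of gene families, were chosen after their values were seen.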

Additional observations from a re-analysis of the deposited data

Results flagged for a closer look

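The effect of KO on 14 of the circles named above differed between cytoplasm and whole cell, by edgeR's interaction of genotype and fraction (adjusted p under 0.05). The values are the log2 effect in the cytoplasm minus that in the whole cell. It was positive for circKlhl8 (8.52, adjusted p = 1.86e-09), circSh3rf3 exon 4 (8.44), circBcar3 (4.21), circMtdh (4.10), circGalnt7 (3.66), circZfp608 (3.38) and circHipk2 (2.69). It was negative for circYthdf2 (-5.60), circVps13b exon 34 (-4.86), circFoxn3 (-4.38), circAsph (-4.34), circSetd2 (-4.16), circMllt3 exon 5 (-4.14) and circKif26b (-2.93). The difference stayed under the threshold in 9 of 9 alternative fits (a replicate block and leaving out each library, with DESeq2, other scalings and no filter not run) except for circAsph (7), circHipk2 (6) and circKif26b (3). circKlhl8, circSh3rf3 exon 4, circBcar3, circGalnt7, circZfp608, circVps13b exon 34 and circFoxn3 were named for a small p of KO against WT in these libraries. circSetd2, circMllt3 exon 5 and circYthdf2 were chosen after their values were seen. The 14 are thus a selected set, and their number does not measure how common such differences are. Over all circRNAs tested for the interaction 31.0% of 4803 passed, and 24.9% of the 225 single-exon circles did. The 2 libraries of each genotype and fraction are few, and causes were not tested.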

How the results depend on the processing

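Deviations of same-numbered libraries had correlations of -0.0187 and 0.0164 between genotypes and of 0.00705 and -0.0918 between fractions. In mRNA the correlations were 0.197, 0.117 and -0.217. With 2 libraries a group and few reads per circRNA, the circRNA values cannot show whether the replicate numbers pair the libraries. Pairing was not tested in another way. With a replicate block the counts were 157 in the cytoplasm, 69 in the whole cell, and 153 and 136 between fractions in WT and KO. The block gave 56 for the interaction and 321 host genes. For KO against WT in the cytoplasm, 39 circles were called with DESeq2 and 81 with no scaling, and leaving out 1 library gave 0 (without KO replicate 1), 79 (KO replicate 2), 78 (WT replicate 2) and 124. In the whole cell, 0 were called with DESeq2, with no scaling and with no filter (27, 83 and 141 at an unadjusted p under 0.05), 72 with total reads as library size, and 0 (without KO replicate 2) to 17 (KO replicate 1), with 11 and 3 for the WT replicates. Between fractions in WT, 71 were called with no scaling, 35 among circRNAs of both lists, and 0 (either cytoplasmic library) to 87 without 1 library. In KO, these were 48 and 32, with 245 with no filter and 79 to 89 without 1 library. For the interaction the range was 36 (without KO whole-cell replicate 2) to 46, and for host genes 262 to 332.

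With all single-exon circRNAs, the difference in share was -0.615 points between genotypes in the cytoplasm, 1.98 in the whole cell and 1.42 between fractions. As a share of listed circRNAs it was -0.0641 between genotypes in the whole cell and -0.259 between fractions, the latter passing the threshold. Leaving out 1 library gave 0.229 to 0.522 in the cytoplasm, -0.0963 (without WT replicate 1) to 0.245 in the whole cell and -0.388 to -0.183 between fractions. Scaled to equal totals, the level difference was 0.103 in the cytoplasm and 0.0166 in the whole cell, and without 1 library it was -0.0817 to -0.0112 and -0.0193 to 0.0161 (0.00389 without KO replicate 2). For these results the other alternatives kept direction, and causes were not tested. Keeping the side of the threshold says little here. Between genotypes, 2 against 2 libraries cannot give a p under 0.333, and no test was run without 1 library. Between fractions the permutation p without 1 library was 0.0571 to 0.229, and fewer than 4 against 4 libraries cannot bring it under 0.05. There were 2 libraries a group, and the circles had a median of 19 reads in the cytoplasm and 14 in the whole cell over 4 libraries.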
